A study of Mus musculus with 4 samples.

Results

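Unbroken regions of 8 kb or wider made up 862 of the 82994 H3K27ac regions on chromosomes 1 to 19 (1.04%) and 8.58% of the sequence those regions covered, 9.98 Mb of 116.3 Mb. They were chosen by width alone: every peak of the replicated list whose end minus start was 8000 bp or more, with no joining of neighbours. H3K27ac was measured by ChIP-seq, which sequences the DNA pulled down with an antibody, in the gastrocnemius of the calf, where fast-twitch fibres prevail. The tissue was from female B6CASTF1/J mice, F1 hybrids of the C57BL/6J and CAST/EiJ strains, that were adult and 2 months old. There was 1 group of samples and no other genotype or treatment, with 4 libraries, 2 technical ones from each of 2 biological replicates. Tissue from 2 samples had been pooled for each biological replicate, so differences between single animals are averaged within it. Per the deposited descriptions, the technical libraries of a replicate share 1 alignment, and n is therefore 2.

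Acetylation of lysine 27 on histone H3 is laid down by the coactivators p300 and CBP and marks active promoters and enhancers. At most active genes the mark forms a short block beside the transcript start. At some genes it spreads without a break over many kilobases of promoter, gene body and flanking sequence, and long stretches of this kind are known for lying at genes that set the identity of a cell type. In skeletal muscle such genes include those of the contractile apparatus and the factors that keep fibre type. The whole tissue was used, so more acetylated cells and more acetylation per cell cannot be told apart.

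The sequence at the summit of 4 wide regions is shown because these are the examples to which the results return: the widest of all, the widest with a gene start inside, the widest between protein-coding genes, and the widest over a fast-fibre gene. Each is 300 bases of GRCm38 (mm10) centred on the deposited summit, on the plus strand, from the C57BL/6J reference, so the CAST/EiJ allele is not shown. Capitals mark matches to any of the 12 short motifs given with the motif results, on either strand. None of the 4 windows overlaps an annotated exon, and all lie inside the gene they are named for.
Mbnl1, chr3:60589160-60589459: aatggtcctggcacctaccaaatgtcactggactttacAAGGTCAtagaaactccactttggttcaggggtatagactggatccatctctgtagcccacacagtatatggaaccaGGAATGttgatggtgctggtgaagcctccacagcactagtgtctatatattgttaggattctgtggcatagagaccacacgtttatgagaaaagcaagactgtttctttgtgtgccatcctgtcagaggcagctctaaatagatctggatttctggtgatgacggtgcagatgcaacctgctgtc
Nfix, chr8:84790432-84790731: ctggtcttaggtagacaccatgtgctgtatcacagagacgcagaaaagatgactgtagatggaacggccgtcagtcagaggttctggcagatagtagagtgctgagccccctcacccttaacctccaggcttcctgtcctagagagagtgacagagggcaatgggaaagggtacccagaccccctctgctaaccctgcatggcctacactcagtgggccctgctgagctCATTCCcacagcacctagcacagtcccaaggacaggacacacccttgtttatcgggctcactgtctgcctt
Lncppara, chr15:85670313-85670612: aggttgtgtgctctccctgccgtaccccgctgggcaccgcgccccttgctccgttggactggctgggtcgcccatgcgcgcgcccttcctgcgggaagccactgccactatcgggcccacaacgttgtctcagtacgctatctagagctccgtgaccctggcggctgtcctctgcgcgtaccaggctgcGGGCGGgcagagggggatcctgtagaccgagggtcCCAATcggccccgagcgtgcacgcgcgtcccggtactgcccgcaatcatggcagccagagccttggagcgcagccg
Tnnt3, chr7:142499009-142499308: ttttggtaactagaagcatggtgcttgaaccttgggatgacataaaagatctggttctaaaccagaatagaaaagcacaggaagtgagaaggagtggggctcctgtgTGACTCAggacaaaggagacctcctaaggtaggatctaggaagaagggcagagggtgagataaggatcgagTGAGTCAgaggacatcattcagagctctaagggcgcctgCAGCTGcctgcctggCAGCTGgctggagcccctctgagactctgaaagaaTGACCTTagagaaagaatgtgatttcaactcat
The Tnnt3 window holds 5 matches, which are a pair of CAGCTG E-boxes, a pair of TGANTCA AP-1 sites and 1 AAGGTCA, the letters of an estrogen-related receptor site. The Mbnl1 window holds an AAGGTCA and a CATTCC, and the Nfix window holds 1 CATTCC, the letters of a TEAD site. The Lncppara window is rich in CpG, with 30 CpG dinucleotides and 68.7% GC, against 2 CpG and 46% GC at the Mbnl1 summit.

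MicroRNA genes lay in 22 of the wide regions, 30 genes in all, and 19 of these matched an entry in the RefSeq mature microRNA table. No share for narrower regions is given, so these counts are descriptions. The mature sequences below belong to microRNAs that lie in wide regions as family pairs or are well known in muscle and vessels. They are written 5′ to 3′ with the seed, bases 2 to 8, in capitals. For miR-1a-1 the sequence is that of the 5p strand, as no entry for its other strand was matched. The seed CAUACUU is therefore that of the 5p strand alone.
let-7b-5p: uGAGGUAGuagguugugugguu
let-7c-5p: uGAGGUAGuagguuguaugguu
miR-195a-5p: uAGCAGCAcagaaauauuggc
miR-497a-5p: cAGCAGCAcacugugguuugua
miR-196a-5p: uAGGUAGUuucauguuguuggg
miR-196b-5p: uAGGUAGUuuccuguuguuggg
miR-126a-3p: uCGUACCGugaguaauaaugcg
miR-1a-1-5p: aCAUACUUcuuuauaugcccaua
let-7b and let-7c share the seed GAGGUAG and come from 1 region of 12171 bp at the 3′ side of Lncppara (chr15:85698028-85710198). miR-195a and miR-497a share AGCAGCA and come from 1 region of 11502 bp that also holds the start of Bcl6b (chr11:70224006-70235507). miR-196a and miR-196b share AGGUAGU but lie in different Hox clusters, in regions of 16677 bp at Hoxc10 and 22528 bp at Hoxa9 and Hoxa10. miR-126a, an endothelial microRNA, lies in the Egfl7 region (13674 bp), and miR-1a-1, a muscle microRNA, in a region of 8874 bp (chr2:180383026-180391899). Mir133a-1, Mir1a-2 and Mir1b lay together in a region of 10981 bp and Mir378a in the Ppargc1b region of 8264 bp, while Mir486 lay in the Ank1 region of 10183 bp.

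The 862 widths ran from 8001 to 38375 bp, with a median of 10244 bp (quartiles 8845 and 12912.5). 405 regions were under 10000 bp, 457 regions were 10000 bp or wider, 38 were 20000 bp or wider and 8 were 30000 bp or wider. The deposited signal value, the authors' own measure of enrichment for each peak, for which the sources used here give no baseline, ranged from 7.00 to 72.7 with a median of 32.7. In the regions under 8000 bp the median was 4.70, and in the 3806 regions of 4000 to 7999 bp it was 23.2. Within the wide regions the median signal value was 29.8 from 8000 to under 10000 bp, 34.3 from there to 15000 bp, 38.6 to 20000 bp and 40.8 above that. Width and signal value come from the same reads as the rule, so these values are descriptions.

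**Figure D1:**
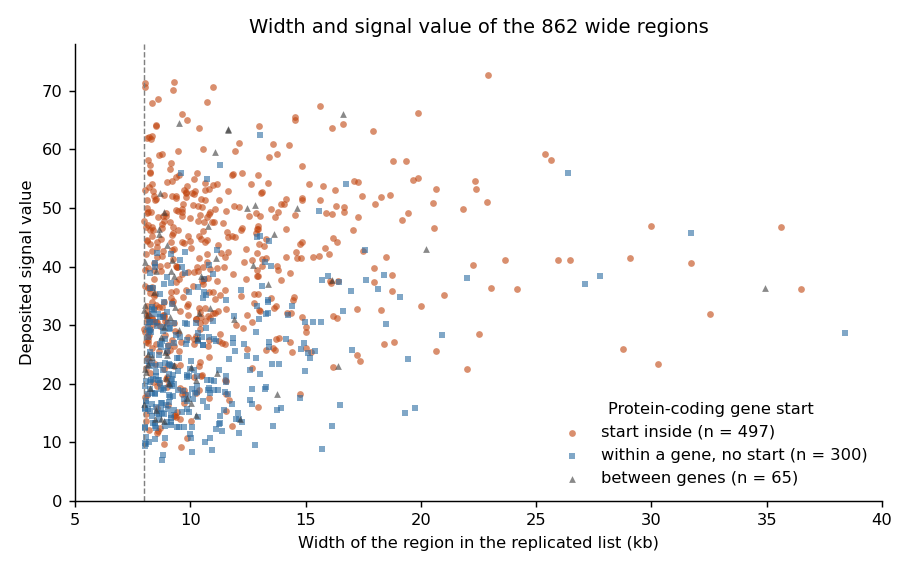
Width (kb) and deposited signal value of each of the 862 wide regions, 1 point per region, by whether a protein-coding gene start lies inside; the dashed line is the 8000 bp threshold. The points are densest near the threshold, where 405 regions are under 10000 bp wide, and the highest signal value, 72.7, is at Klf9, which is 22892 bp wide.

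Signal values of the wide regions ranked high among all regions, at a median percentile of 93.9 and a lowest of 67.3, with 6 regions under the 75th. The lowest signal value was 7.00, in an intron of Tgfbr3, a coreceptor for TGF-beta (8751 bp), followed by 7.81 in Camk2g, a calcium and calmodulin dependent kinase (8811 bp), and 8.29 in Arhgap10 (10059 bp). The highest values were 72.7 at Klf9, a glucocorticoid-induced transcription factor (22892 bp), 71.6 at Picalm, an endocytic adaptor (9268 bp), and 71.4 at Nfkbia, the inhibitor of NF-kappa B (8011 bp). Trp53inp2, a regulator of autophagy, had 70.7 (10966 bp) and Vamp2, a vesicle SNARE protein, 70.6 (8021 bp). Regions with a gene start inside had a median signal value of 40.6, those within a gene but with no start 23.1, and those between protein-coding genes 32.1.

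The threshold cut through a continuous range of widths. Just inside it were a region 225417 bp from the start of Maf (8002 bp, signal value 16.5) and one 47128 bp from the start of Irf2bpl (8004 bp, 32.5). Just outside were regions over Flnc, the muscle filamin (7997 bp, 52.3), near Adsl (7990 bp, 27.6) and over Pdgfrb, a pericyte receptor (7988 bp, 19.6). Flnc, although outside, was covered to 97.7% by 1 peak of replicate 1 and wholly by 1 peak of replicate 2.

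Several genes of transcription factors were among the 25 widest. Nfix, a nuclear factor I gene, had a region of 36489 bp (chr8:84763642-84800130, signal value 36.2), and Nfic, of the same family, one of 31714 bp (chr10:81400411-81432124, 40.6). Klf13 shared 35632 bp (chr7:63893000-63928631, 46.7) with the start of E030018B13Rik, a gene of unknown role. Ahdc1, a DNA-binding protein gene, had 32556 bp (chr4:133033935-133066490, 31.9), Klf9 22892 bp, and Hoxa9 with Hoxa10, limb patterning genes, 22528 bp (28.5). An intron of Zbtb16, a repressor also called PLZF, held 26379 bp (chr9:48726936-48753314, 56.0). G430095P16Rik had 24150 bp (chr8:84715536-84739685, 36.2), a region that lay inside the annotated bounds of Nfix.

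Others of the 25 lay at metabolic, structural and signalling genes. Hk2, the hexokinase that starts glucose use in muscle, had 29085 bp (chr6:82746679-82775763, 41.4), H6pd, which makes NADPH in the endoplasmic reticulum, 26483 bp, Gpt2, a mitochondrial alanine aminotransferase, 27134 bp, and Pkm, muscle pyruvate kinase, 22407 bp. Tnnt3, the fast troponin T, had 29967 bp (chr7:142479237-142509203, 47.0). Among genes of actin and its partners were Capzb, which caps the barbed end (30288 bp), Actn4, a non-muscle actinin (28777 bp), and Cdc42ep3, a Cdc42 effector (25934 bp). Ahnak, a giant scaffold, had 25385 bp and Hspg2, the basement membrane protein perlecan, 23036 bp. Signalling and protein turnover were represented by Itpkb, an inositol trisphosphate kinase (27745 bp), Pde4b, a cyclic AMP phosphodiesterase (25653 bp), Usp2, a deubiquitinase (23630 bp), and Bag3, a cochaperone of the Z-disc (22859 bp).

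RNA-related loci gave the widest region and 2 more of the 8 at 30000 bp or above. The widest, 38375 bp (chr3:60560326-60598700, signal value 28.6), lay wholly inside Mbnl1, a regulator of alternative splicing, 31177 bp from the nearest start. A region of 34914 bp (chr15:85652176-85687089, 36.4) held the start of the long noncoding RNA Lncppara, 48475 bp from the start of Ppara. A region of 31702 bp (chr19:5821399-5853100, 45.7) covered all of Neat1, the scaffold RNA of paraspeckles, and the 3′ end of Frmd8. Its neighbour over Malat1, another abundant nuclear RNA, was 16628 bp wide with a signal value of 66.0 (chr19:5792649-5809276).

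Every one of the 862 wide regions had the same bounds in the list from pooled replicates, as did 92.4% of all regions, and every one was found in both single-replicate lists. With a match defined as an overlap of at least 50% of the shorter interval, 862 of 862 were matched in replicate 1 and 862 of 862 in replicate 2, where the background over all 82994 regions was 66.8% and 84.0%. All 3806 regions of 4000 to 7999 bp were matched in both lists too, so a full match is not particular to the widest regions. When 50% of both intervals had to overlap, 652 (75.6%) were matched in replicate 1 and 834 (96.8%) in replicate 2, with a background of 53.5% and 76.2%. For each wide region, the single-replicate peak with the highest signal value over it was ranked within its own list. Its median percentile was 93.1 in replicate 1 and 94.5 in replicate 2. Where several peaks lay over a region, this is the rank of the highest alone. The replicated list was made from the reads of both replicates, so a match is a description and carries no test. With 1 group of 2 replicates, no test over samples exists.

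Presence in a replicate did not mean presence as 1 peak. The peaks of replicate 1 covered a median of 93.7% of a wide region (quartiles 89.0 and 96.9) and those of replicate 2 99.5% (98.3 and 99.98). No wide region was covered under 50% in either. A region was called unbroken in a replicate where 1 peak of it covered at least 90% of the region, which held for 210 wide regions (24.4%) in replicate 1 and 667 (77.4%) in replicate 2. The background over all regions was 18.5% and 61.8%, and regions of 4000 to 7999 bp had 26.3% and 78.2%, so the wide regions were close to those next in width. They were unbroken in both replicates in 185 cases (21.5%, background 13.5%), in replicate 2 alone in 482, in replicate 1 alone in 25 and in neither in 170. The name unbroken therefore describes the replicated and pooled lists, and in replicate 1 most of these regions were broken.

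**Figure D2:**
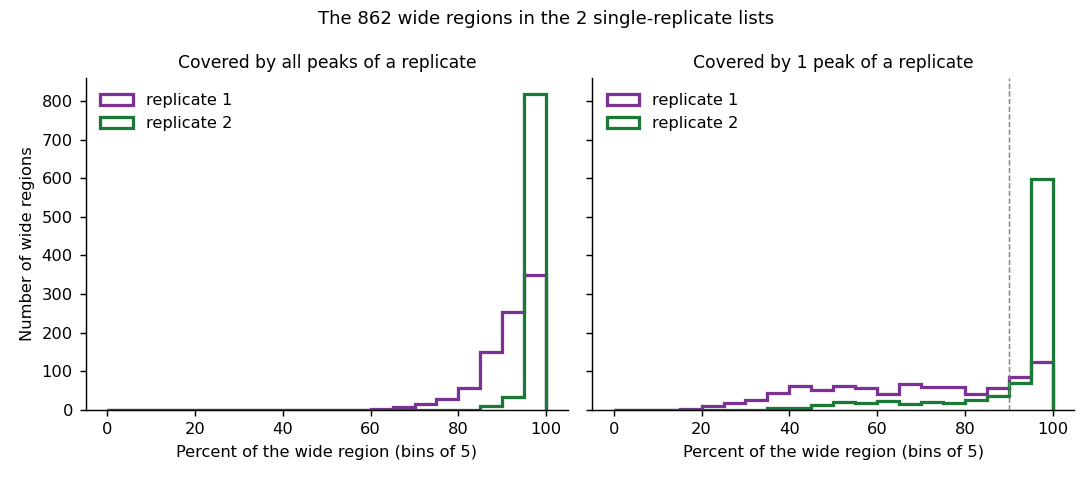
Number of wide regions by the percent of their length covered by all peaks (left) or by 1 peak (right) of replicate 1 and of replicate 2, in bins of 5%; the dashed line is the 90% used to call a region unbroken. Covered length is near complete in both, at medians of 93.7% and 99.5%, while the share held by 1 peak spreads widely in replicate 1.

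The replicates differed in the same way over their whole lists. The replicate 1 list held 69747 autosomal regions over 83.9 Mb and the replicate 2 list 85382 over 116.1 Mb. Replicate 1 had 375 peaks of 8000 bp or more and replicate 2 had 826, against 862 in the replicated list. Read counts are not part of the lists, and the part of sequencing depth in this difference was not tested. A replicate 1 peak of 8000 bp or more overlapped 364 wide regions (42.2%, background 0.451% of all regions), and a replicate 2 peak of that width overlapped 724 (84.0%, background 1.26%). The backgrounds hold the wide regions themselves, 364 of 374 and 724 of 1044. Width is what the rule used, so this contrast was fixed in advance and is a description. In the other direction, 373 of the 375 wide peaks of replicate 1 and 725 of the 826 of replicate 2 overlapped a wide region. Of the 101 wide peaks of replicate 2 that did not, 89 lay over 2 or more narrower regions of the replicated list. The widest of these, 19065 bp at 33890 bp from the start of Plpp1 (chr13:112747838-112766902), was split there into 3 regions, the widest of them 7178 bp.

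The number of peaks a wide region was cut into had a median of 3 in replicate 1, with 10 at most, and 1 in replicate 2, with 6 at most. From the narrowest to the widest of these regions the share unbroken in replicate 1 was 26.2% (8000 to under 10000 bp), 23.8%, 20.5% and 18.4% (20000 bp or more). The widest regions show both patterns. The Neat1 region was 1 peak in each replicate, of 31752 bp in replicate 1 and 31359 bp in replicate 2. The Mbnl1 intron was 1 peak of 38353 bp in replicate 2 and 8 peaks in replicate 1, the longest 21949 bp. Nfix was 1 peak of 36488 bp in replicate 2 and 6 peaks in replicate 1, the longest 12385 bp. Capzb was broken in both, into 10 peaks in replicate 1 and 4 in replicate 2. Of the 25 widest, Neat1, G430095P16Rik, Usp2, Hspg2 and Klf9 were the ones unbroken in both replicates, and the Zbtb16 intron was unbroken in replicate 1 (99.9% in 1 peak) but not in replicate 2 (63.1%).

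**Figure D3:**
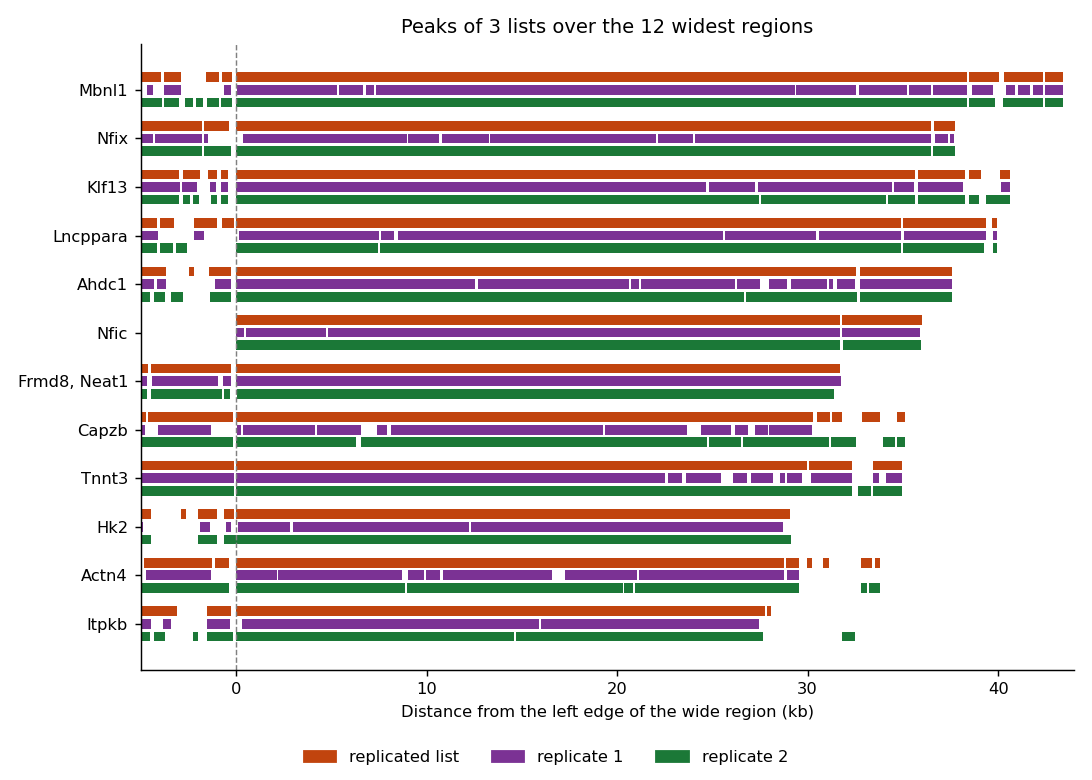
Peaks of the replicated list, replicate 1 and replicate 2 over the 12 widest regions and 5 kb to each side, against the distance from the left edge of the region (kb), widest at the top and named by a gene or long noncoding RNA they hold or lie in. Neat1 is 1 bar in all 3 lists, while Capzb is cut into 10 pieces in replicate 1 and 4 in replicate 2.

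The breaks were short. Replicate 1 had 1514 gaps inside 664 wide regions, with a median of 144 bp (quartiles 103 and 256), and replicate 2 had 345 gaps inside 273 regions, with a median of 108 bp (89 and 149). Where a region was broken, its longest gap had a median of 203 bp in replicate 1 and 113 bp in replicate 2. The longest of all was 3148 bp in replicate 1, over Ahnak, and 38 regions had a gap over 1000 bp there, against 3 in replicate 2. With replicate peaks at most 500 bp apart joined, an alternative added after the data were seen, 632 wide regions (73.3%) were unbroken in replicate 1 and 850 (98.6%) in replicate 2. Gap bases were soft-masked repeats in 29.8% of cases in replicate 1, against 16.7% in the remaining sequence of the same regions, and in 29.3% against 16.8% in replicate 2. Their GC content was 45.1% against 49.2% in replicate 1 and 44.5% against 48.9% in replicate 2. 8 gaps of replicate 1 and 0 of replicate 2 held a protein-coding transcript start. In replicate 1 gaps made up 4.86% of the sequence of the broken regions and held 1.15% of their 785 start positions. In replicate 2 they made up 1.55% and held 0% of 291.

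The least covered regions were few. In replicate 1 the lowest shares were at Lrrfip2 (61.3%), an intron of Itpr1, an inositol trisphosphate receptor (63.2%), an intron of Cystm1 (63.9%), Elavl1 with Ccl25 (65.1%) and Rab1a, a GTPase of vesicle traffic (65.8%). Lrrfip2 and Itpr1 were each covered wholly by 1 peak in replicate 2. In replicate 2 the lowest were Elavl1, an RNA stabilising protein (86.0%), an intron of Smad3, a TGF-beta effector (86.8%), Angptl2 (87.9%), an intron of Dpp8 (88.5%) and the Ppp1r12b intron near Syt2 (88.6%). Elavl1 was among the lowest in both.

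The edges of the wide regions were as fine as the gaps. The nearest other region of the same list lay at a median of 183 bp (quartiles 115 and 619.8), and for 612 of the 862 (71.0%) it lay within 500 bp. Among regions of 4000 to 7999 bp the median was 262 bp and 60.9% had such a neighbour, and among all regions under 8000 bp it was 508 bp and 49.8%. No 2 regions of the replicated list in these sets were closer than 77 bp.

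A protein-coding gene start lay inside 497 of the wide regions (57.7%), where the background over all regions was 13.9%. The share was 41.4% in regions of 4000 to 7999 bp and 13.5% in all regions under 8000 bp. A wider region has more room for a start, and per Mb of covered sequence the wide regions held fewer gene starts, 55.5, against 86.0 at 4000 to 7999 bp and 114.5 under 8000 bp. Within the wide regions the share was 52.3% from 8000 to under 10000 bp, 59.8% from there to 15000 bp, 66.3% to 20000 bp and 76.3% of the 38 above that. A further 300 (34.8%) overlapped a protein-coding gene without a start, against 55.8% of all regions and 44.2% at 4000 to 7999 bp. The remaining 65 (7.54%) lay between protein-coding genes, against 30.3% (30.25%) and 14.4%. Both classes were thus less common among wide regions. Sequence inside protein-coding genes made up 81.0% of the wide regions, against 75.4% at 4000 to 7999 bp and 68.6% under 8000 bp. Exons made up 8.08%, against 8.19% and 7.89%.

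Genes with a start inside a wide region numbered 535 of the 20780 protein-coding gene symbols on these chromosomes, 2.57%, or 4.50% of the 11893 with a start in any region. Their median length was 24912 bp, against 24527 bp for genes with a start in narrower regions alone and 17629 bp for all protein-coding genes. 52 of the 862 wide regions held starts of 2 or more genes, against 1110 of all 82994 regions and 167 of the 3806 at 4000 to 7999 bp. A wider region has more room for this. At least 1 whole gene lay in 83 wide regions, 92 whole genes in all, and no share for narrower regions is given. The 2 regions with 3 gene starts covered Ndrg2 with Rnase13 and Tppp2 (14545 bp, signal value 65.6) and Ifitm2, an interferon-induced membrane protein gene, and Ifitm5 with Gm45717 (11388 bp, 26.9). The next by width, with 2 starts each, were Klf13 with E030018B13Rik, Hoxa9 with Hoxa10, and Smim7 with Tmem38a, a channel of the sarcoplasmic reticulum (20669 bp, 53.2). Whole genes inside a region included Mknk2, Txnip, Bhlhe40, Bhlhe41 and the glycolytic Tpi1, Eno3 and Aldoa.

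Where exactly 1 gene had its start inside, the region lay mostly downstream of it. In these 445 regions the median reach was 7860 bp downstream (quartiles 6149 and 10439) and 2306 bp upstream (1241 and 4444) of the first start inside. The downstream part was a median of 78.5% of the width, against 71.9% at 4000 to 7999 bp and 64.9% under 8000 bp. The downstream part was the longer one in 362 (81.3%), against 82.2% and 79.6%, so the direction was about as common in narrower regions. At 4000 to 7999 bp the median reach was 3698 bp downstream and 1464 bp upstream. Hk2 reached 27775 bp downstream and 1309 bp upstream, Nfic 30594 and 1119 bp, and Actn4 28749 and 27 bp. Tnnt3 was among the exceptions, with 10367 bp downstream and 19599 bp upstream. The summit lay within 1000 bp of the start in 76.4% of the 445, against 86.4% at 4000 to 7999 bp and 96.6% under 8000 bp, and at a median of 213 bp downstream of it.

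**Figure D4:**
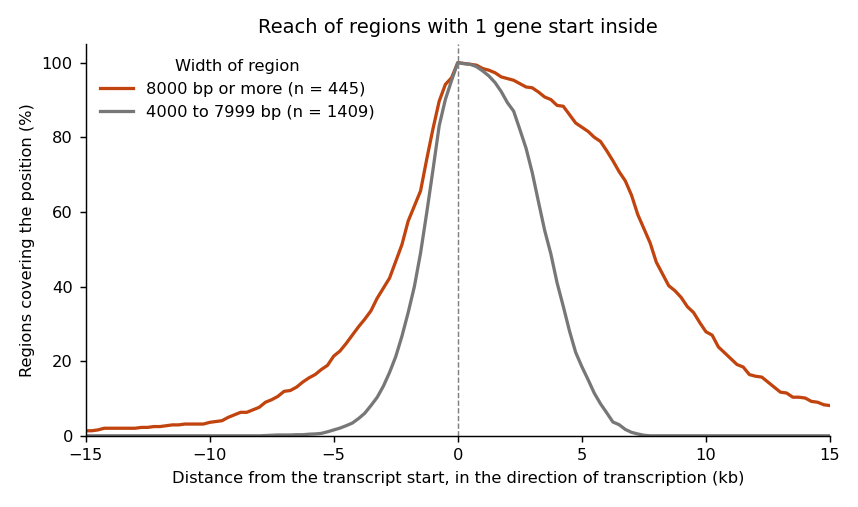
Percent of regions that cover each position around the first start inside (kb, positive downstream in the direction of transcription), for the 445 wide regions and the 1409 regions of 4000 to 7999 bp with 1 gene start inside. At 5 kb downstream 82.7% of the wide regions still cover the position, against 21.3% at 5 kb upstream.

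Fast-fibre and glycolytic genes were often covered. The gene lists were chosen with earlier results of these data known, and their counts are read against the 2.57% of all protein-coding genes. Of 20 fast-fibre genes, 13 had a start inside a wide region, among them Tnnt3 (29967 bp), Myl1, the fast myosin light chain (17363 bp), and Atp2a1, the fast calcium pump (17284 bp). All 20 had a start in some region, and of the 7 not covered, Tnni2 (7937 bp), Casq1 (7494 bp) and Pvalb (7374 bp) had regions little under the threshold. The fast myosin genes differed, with 16374 bp at Myh4, 3398 bp at Myh2 and 3121 bp at Myh1. In replicate 1 alone 7 of the 20 starts lay in a peak of 8000 bp or more, where the background was 1.15% of all genes, and in replicate 2 alone 14, where it was 2.50%.

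Of 16 slow-fibre genes none had a start inside a wide region, which in a list this short is near the background of 2.57%. A start in any region was present in 9 of them, where the background was 57.2% of all protein-coding genes. The widest region at a start of these was 6961 bp at Sox6, a repressor of slow-fibre genes in mice, which belongs to the list for its role and not as a slow-fibre product. Atp2a2, the slow calcium pump, had 3143 bp and Tnnt1, the slow troponin T, 1036 bp. Myh7, Myl2, Tnnc1 and Tnni1 had no region at a start. Neither single-replicate list had a peak of 8000 bp or more at any of the 16.

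Genes of glycolysis and glycogen use had 12 of 18 covered, led by Hk2 (29085 bp), Pkm (22407 bp), Aldoa, muscle aldolase (16318 bp, shared with Fam57b), and Pfkm, muscle phosphofructokinase (16171 bp). In Pfkm, Pygm, the muscle glycogen phosphorylase (10568 bp), and Gapdh (8517 bp) the region was unbroken in both replicates. Ldha, lactate dehydrogenase A, was not covered, with 4588 bp. Wide peaks held 8 of the 18 starts in replicate 1 and 12 in replicate 2. Of 20 genes of oxidative metabolism and fat use 4 were covered, namely Ucp3, a mitochondrial carrier (12403 bp), Mb, myoglobin (10831 bp), Acsl1, which activates fatty acids (10818 bp), and Cd36, a fatty acid transporter (9314 bp). None of these 20 starts lay in a wide peak of replicate 1, and 6 did in replicate 2.

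Sarcomere genes had 11 of 24 covered, with Tpm1, a tropomyosin (22343 bp), Myot, myotilin (15250 bp), Ldb3, a Z-disc protein (13347 bp), and Synpo2l (12975 bp) the widest. Acta1, skeletal actin (8114 bp), and Des, desmin (8051 bp), lay just above the threshold, and Ttn, titin, had 6851 bp. Calcium release and triad genes had 10 of 19 covered, led by Atp2a1, Srl, sarcalumenin (14855 bp), Trdn, triadin (12775 bp), and Asph, whose locus encodes junctin (10920 bp). The ryanodine receptor Ryr1 had 8710 bp and the calcium channel subunit Cacna1s 3875 bp. In replicate 1 alone 7 sarcomere starts and 5 calcium release and triad starts lay in a wide peak, and in replicate 2 alone 11 and 7. Of 15 dystrophin complex genes 3 were covered, among them Ank1, an ankyrin (10183 bp), and Dag1, dystroglycan (10165 bp), against 1 in replicate 1 alone and 2 in replicate 2 alone. Of the 11 muscle markers that define the tissue here, Acta1, Ckm, Myh4, Mylpf, Tnnt3, Tnnc2, Ryr1 and Atp2a1 were covered and Tnni2, Ttn and Myod1 were not.

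Regulators of muscle genes had 7 of 22 covered, among them Nfix, Nfic, Nr4a1, an orphan receptor (20985 bp), Mef2d (17942 bp), Maf (12938 bp) and Mef2c (8219 bp). The myogenic factors had narrower regions, with 6528 bp at Myf6, 4733 bp at Myod1, 3491 bp at Myog and 3458 bp at Myf5. In replicate 2 the Myod1 start lay in a peak of 9746 bp (chr7:46369421-46379166), which the replicated list held as 2 regions. In replicate 1 alone 5 of the 22 regulator starts lay in a wide peak, and in replicate 2 alone 8. Families added after values were seen are given as values only. All 4 nuclear factor I genes were covered, Nfib with 16601 bp and Nfia with 12913 bp beside Nfix and Nfic, as were both muscleblind genes, Mbnl1 (19882 bp) and Mbnl2 (10234 bp). Pde4b and Pde4d (22257 bp) were the covered genes among 4 of their family, Ptp4a3 (20530 bp) and Ptp4a2 (19436 bp) among 3 PRL phosphatases, Nr4a1 among 3 Nr4a receptors, and Klf13, Klf9, Klf15 (13598 bp) and Klf3 (12250 bp) among 15 Krüppel-like genes. None of the 4 class IIa deacetylases had a start covered, although wide regions lay over other parts of Hdac4 (21998 bp) and Hdac5.

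Clock genes had 7 of 15 covered, led by Bhlhe41 (17443 bp), Cry2 (14596 bp), Tef (14333 bp) and Bhlhe40 (14279 bp). Of the genes of the core loop, Cry2, a repressor, was covered and Arntl (2654 bp), Clock (2416 bp), Per1 (7823 bp), Per2 (5416 bp), Per3 (3318 bp) and Cry1 (3210 bp) were not. Wide peaks held the starts of 6 clock genes in replicate 1 and 7 in replicate 2. Immediate-early and glucocorticoid-induced genes had 7 of 19, with Klf9, Fkbp5, an inhibitor of the glucocorticoid receptor (13798 bp), Klf15, and Cebpb (12911 bp) the widest. Klf9, Fkbp5 and Klf15 were each unbroken in both replicates. Fos had 4187 bp and Egr1 4513 bp. Of the 19 starts, 4 lay in a wide peak of replicate 1 and 7 in one of replicate 2. Genes of atrophy and protein breakdown had 5 of 16: the ubiquitin ligase genes Fbxo31 (18021 bp), Fbxo32 (14551 bp) and Trim63 (14159 bp), the muscle calpain Capn3 (10650 bp) and Bnip3 (8678 bp). Of these 16 starts, 2 lay in a wide peak of replicate 1 and 5 in one of replicate 2.

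**Figure D5:**
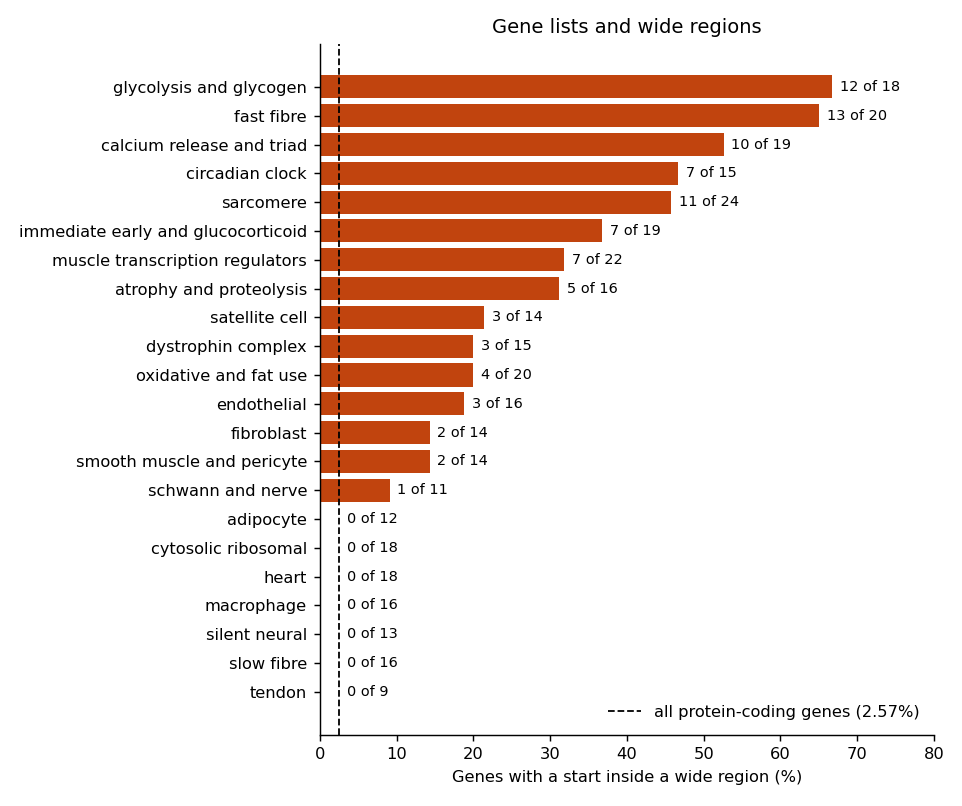
Percent of the annotated autosomal genes of each list with a start inside a wide region, with counts beside the bars; the dashed line is the 2.57% of all protein-coding genes. Glycolysis and glycogen (12 of 18) and fast fibre (13 of 20) stand at the top, and slow fibre, heart, ribosomal, macrophage, adipocyte, tendon and neural lists are at 0.

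Lists of markers of other cell types had from 0 to 3 genes covered each. In 5 of these 8 lists the share covered was 9.09% to 21.4%, above the 2.57% of all protein-coding genes. In the other 3 it was 0, which in lists this short is near that background. Endothelial genes had 3 of 16, namely Egfl7 (13674 bp), Eng, the TGF-beta coreceptor endoglin (9877 bp), and Pecam1, an adhesion molecule (9765 bp), all 16 had a start in some region, and 0 lay in a wide peak of replicate 1 and 4 in one of replicate 2. Satellite cell genes had 3 of 14, the widest at Sdc4, a syndecan (13792 bp), while Pax7, which defines these cells, had 2518 bp, and 1 lay in a wide peak of replicate 1 and 3 in one of replicate 2. Smooth muscle and pericyte genes had 2 of 14, Cspg4 (11696 bp) and Mcam (8849 bp), fibroblast genes 2 of 14, Col6a1, a collagen VI chain (9371 bp), and Dcn, decorin (8564 bp), and Schwann cell genes 1 of 11, Pmp22, a myelin protein (10812 bp). Tendon (0 of 9), macrophage (0 of 16) and adipocyte (0 of 12) genes had none. In replicate 1 alone the counts were 1 for smooth muscle and pericyte, 2 for fibroblast and 0 for Schwann cell genes, and in replicate 2 alone 3, 1 and 1, with 1 adipocyte gene, Lipe, a fat-cell lipase. The part of these cells in any wide region was not tested.

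Lists of other tissues and of housekeeping genes had no gene covered. Of 18 heart genes 4 had a start in any region, the widest 6286 bp at Gja1. Of 13 neural genes none did. All 18 cytosolic ribosomal protein genes had a start in a region, but with widths of 1409 to 3471 bp, although the signal value reached 47.9 at Rplp2. A high signal value at a start thus did not go with a wide region at these genes.

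Of the 365 wide regions with no protein-coding start, the 10 widest were those in Mbnl1, at Lncppara, over Neat1, in Itpkb, in Gpt2, in Zbtb16, in Hdac4 (21998 bp), again in Zbtb16 (20898 bp), 7398 bp from the start of Kmt2e (20234 bp) and in 2010111I01Rik (19721 bp). The 300 within genes lay at a median of 14976.5 bp from the nearest start, and 45 of them lay over 50 kb away. For the 65 between genes the median was 46183 bp, and 24 of the 65 held the start of a long noncoding RNA. Among these were Malat1, Nctc1 at 14098 bp from the start of Mrpl23 (12808 bp, signal value 50.6), and 2310065F04Rik at 30921 bp from the start of Myh3, the embryonic myosin heavy chain (12717 bp, 40.3). Over all 862 regions, 176 held a long noncoding RNA start, and no share of such starts for narrower regions is given. In replicate 1 the regions within genes but without a start were unbroken in 19.3% of cases, those between genes in 30.8% and those with a start in 26.6%. In replicate 2 the shares were 72%, 75.4% and 80.9%. At 4000 to 7999 bp they were 18.3%, 30.3% and 33.4% in replicate 1 and 73.8%, 78.5% and 82.8% in replicate 2. Over all regions they were 13.65%, 18.6% and 37.9% in replicate 1 and 56.9%, 60.3% and 84.7% in replicate 2. Wide regions with a start were thus less often unbroken than others with a start, and the other classes were near those next in width.

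Some wide regions lay near each other, and no share for narrower regions is given beside these counts. With a limit of 50 kb between neighbours, 289 of the 862 (33.5%) fell into 123 groups, and 31 groups held 3 or more. The largest held 5 each. Zbtb16 had 85489 bp in wide regions within 125453 bp, and Tns1, which links actin to integrins, 67420 bp within 119079 bp. In all, 823 protein-coding genes were touched by a wide region, 108 of them by 2 or more and 26 by 3 or more. By annotated bounds Fgfr2, a fibroblast growth factor receptor, was touched by 6, with 64476 bp in total. These lay in groups of 2 that also touched Nsmce4a (chr7:130551192-130573126), Lhpp (chr7:132653021-132675722) and Fam53b (chr7:132760120-132814746). The count for Fgfr2 thus rests on a gene model that reaches over other genes, and does not assign these regions to it. By chromosome the number of wide regions per Mb ran from 0.196 on chromosome 13 to 0.691 on chromosome 11, and the share of all regions that were wide from 0.621% on chromosome 12 to 1.41% on chromosome 15.

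In base composition the wide regions were near the others. Median GC content was 49.4% (quartiles 46.0 and 52.6), against 49.1% at 4000 to 7999 bp and 48.2% under 8000 bp. Medians of CpG per 100 bp were 1.57, 1.49 and 1.26, and of soft-masked repeat bases 15.9%, 15.5% and 11.8%. The Mbnl1 intron, the widest region, was at the low end with 39.1% GC and 0.753 CpG per 100 bp. Within 150 bp of the protein-coding starts inside, CpG per 100 bp had a median of 7.33 for wide regions, against 8.0 and 8.33 for the narrower sets. Starts with under 2 CpG per 100 bp were 16.3% of those in wide regions, against 9.92% and 6.34%.

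Motifs were searched as fixed letters on both strands within 150 bp of the summit. The paired shares that follow are those of wide regions and then of regions under 8000 bp. The E-box CAGCTG, bound by MyoD and myogenin, was present in 18.9% and 19.8%. A short MEF2 consensus was in 3.71% and 4.63%, the TEAD letters CATTCC in 15.2% and 15.7%, and the MEF3 letters TCAGGTT in 2.44% and 4.52%. AP-1 letters, TGANTCA, were in 5.57% and 8.55%, and CCAAT in 20.4% and 28.1%. These shares differed with the class of region. Among regions with a gene start AP-1 letters were in 4.02% and 3.28% and CCAAT in 18.9% and 18.2%, and among those without one AP-1 letters were in 7.67% and 9.37% and CCAAT in 22.5% and 29.7%. CATTCC was in 11.7% and 9.84% with a start and in 20% and 16.6% without. The GC box CCGCCC, bound by Sp and Krüppel-like factors, was in 26.7% and 12.7%, but among regions with a gene start in 39.4% and 50%, and without one in 9.32% and 6.88%. GC content at the summits moved with it, at a median of 56.5% and 49.5% over all regions and 63.1% and 64.8% among those with a start, and its part in these shares was not tested. Estrogen-related receptor letters, AAGGTCA, were in 6.84% and 6.19%, the ETS letters CCGGAAG in 3.71% and 3.06% (5.63% and 10.7% with a start, 1.10% and 1.87% without), the clock E-box CACGTG in 4.41% and 4.34%, and a glucocorticoid receptor consensus in 0.464% and 0.616%. In regions of 4000 to 7999 bp the GC box was in 24.1%, CCAAT in 23.4%, AP-1 letters in 6.59% and TCAGGTT in 3.1%. These were nearer to the shares of the wide regions than to those of all regions under 8000 bp. The same held for MEF2 (3.73%), CATTCC (13.7%), ETS letters (3.73%) and CACGTG (4.41%). The reverse held for CAGCTG (19.9%), AAGGTCA (6.07%) and the glucocorticoid receptor consensus (0.578%). The full, palindromic nuclear factor I site was in none of the 862 and in 0.0231% of regions under 8000 bp. With letters this rare, their absence does not set the wide regions apart. No motif contains another, and CCAAT can share bases with the full nuclear factor I site. A match describes these letters in the reference and is not evidence of binding.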

How the data were processed

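H3K27ac chromatin immunoprecipitation had been sequenced in 4 gastrocnemius libraries, and the authors deposited 4 peak lists on mm10, 1 per biological replicate, 1 from pooled replicates and 1 replicated list; which is which is given by the deposited descriptions. For the aligner, the peak caller and its thresholds, the sources used here give nothing. Each peak carries a deposited signal value, its p-value and q-value as −log10, and the offset of its summit, the position of highest enrichment. The lists hold no read counts, so depth is unknown and no interval from depth is given.

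Regions were those of the replicated list on chromosomes 1 to 19. Overlaps were computed with Python 3.11.15, numpy 2.4.6 and pandas 2.3.3 and checked on simulated intervals. Genes were those of GENCODE M21, basic set, and a gene was covered where any of its transcript starts lay inside a wide region. Sequence was GRCm38, the same build as mm10, and microRNA sequences came from RefSeq on that build. All samples form 1 group, so no test was made. Shares are given beside all regions, regions of 4000 to 7999 bp or regions under 8000 bp. Alternatives changed the width, the list, the overlap, the definition of a start and the flank of the summit.

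The wide regions, the 22 gene lists and the 12 motifs were chosen with earlier results of these data known, and 7 gene families after values were seen. Members named are the 25 widest, up to 4 genes per list in the widest members, the 10 widest without a start, the 5 with most starts, the 5 least covered in each replicate, the 3 on each side of the threshold, the 5 with the highest signal value and the largest groups. Other members named beside these were chosen after their values were seen. Some members that these rules name are not reported here.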

Additional observations from a re-analysis of the deposited data

How the results depend on the processing

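The number of wide regions was 457 at a minimum of 10000 bp and 1849 with neighbours at most 500 bp apart joined, and with 1 replicate left out it was 375 to 826. The share with a gene start inside was 55.3% at 7000 bp, 62.4% at 10000 bp, 58.6% with a start within 1000 bp counted, 45% counting only the 5′ end of each gene, and 58.5% to 59.5% with 1 replicate left out. Median GC content was 49.6% to 50.7% with 1 replicate left out. The share unbroken in replicate 1 was 73.3% once replicate peaks at most 500 bp apart were joined, an alternative chosen after seeing the data. Matches needing 50% of both intervals were 75.6% in replicate 1 and 96.8% in replicate 2. The downstream part of the width was 80.8% measured from that 5′ end. CAGCTG was in 34% of windows of 250 bp to each side of the summit, and in 19% to 22.4% with 1 replicate left out. Of the fast-fibre genes 8 were covered at 10000 bp, and 7 to 14 with 1 replicate left out. The cause of these changes was not tested. Other alternatives stayed within set limits, a ratio of 1.5 for counts and the standard deviation between replicates for shares and medians. For the unbroken share that limit was wide, at 37.5 percentage points. Values within the limits could still move. At 7000 bp there were 1254 wide regions, and with 80% cover by 1 peak the unbroken share was 35.6% in replicate 1 and 84.3% in replicate 2. No paired analysis was possible because there is 1 group and no test compares samples. Depth is unknown, and replicate 1, with fewer and shorter peaks, limits what can be said of unbroken width.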

Other observations

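Chromosome X lay outside the rule. It held 5 regions of 8000 bp or more among its 1456 in the replicated list, the widest 11764 bp, 0 among the 1205 of replicate 1, where the widest was 7836 bp, and 2 among the 1553 of replicate 2, where the widest was 12270 bp.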
